A study of Mus musculus with 8 samples.

Results

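The genes described here are 10 long noncoding RNAs: Malat1 and Neat1, which stay in the nucleus, and 8 genes whose transcripts host small nucleolar RNAs (snoRNAs), namely Gas5, Snhg1, Snhg3, Snhg5, Snhg6, Snhg8, Snhg12 and Epb41l4aos. They were found by their symbols in the GENCODE M21 annotation, through the Ensembl identifiers of the count files, and make up 10 of the 54838 genes listed. The measurements are RNA-seq read counts from iMLL-AF9 mouse bone marrow cells, labelled as leukaemic stem cells of WT genotype, which carry an inducible MLL-AF9 fusion oncogene. Of the 8 samples, 4 were treated with DMSO, the vehicle, and 4 with IOX5, an inhibitor of the prolyl hydroxylases (PHDs) that mark the hypoxia-inducible factors (HIFs) for destruction. All 8 share the fusion, the tissue and the genotype, and the sources used here give neither the dose and duration of IOX5 for these samples nor the meaning of the replicate numbers 1 to 4. Elsewhere in the submission they are called preleukaemic. Nothing states that the replicates of a group came from separate cultures or animals, so p-values measure only the spread between these samples.

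Malat1 is a single-exon RNA that gathers in nuclear speckles, where splicing factors are stored. Neat1 is the scaffold of paraspeckles, bodies that hold RNA-binding proteins such as Sfpq and Nono, and its gene is known as a target of HIF-2 in hypoxic cells. In snoRNA host genes, the introns carry snoRNAs that guide the modification and processing of ribosomal RNA. The spliced host RNA is usually exported, read briefly by ribosomes and destroyed by nonsense-mediated decay, and many host genes start with a tract of pyrimidines, as the genes of ribosomal proteins do. Host RNAs such as Gas5 also have roles of their own in growth control.

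Gene counts summed to 12343770 to 14116054 reads per sample in DMSO and 11351507 to 12708888 in IOX5. Levels are given in CPM, the reads of a gene scaled to a common library size by TMM, and changes as log2 fold changes of IOX5 over DMSO from edgeR with their standard errors (SE). A gene was called where its p, adjusted by Benjamini-Hochberg over the 12405 genes tested, was under 0.05, and all 10 genes passed the filter on low counts. Samples with the same replicate number deviated together from their group means, although numbers 3 and 4 also did so with each other. A second fit that blocks on the replicate number therefore stands beside the first. The 10 myeloid markers examined (among them Mpo, Kit and Hoxa9) all lay above 10 CPM in DMSO, while 8 of 12 markers of lymphoid, erythroid and stromal cells lay below 1 CPM and 4 of these had no read. Summed over its list, the level of the 12 other markers was 86.6 to 179 CPM in DMSO and 137 to 239 CPM in IOX5, most of it from Pecam1, an adhesion molecule that myeloid cells also carry. The share of reads that did not align was higher in every IOX5 sample (3.38% to 4.86%) than in every DMSO sample (2.98% to 3.28%). Mitochondrial genes held 1.37% to 1.54% of gene reads in IOX5 and 1.27% to 1.37% in DMSO, and for both shares the exact two-sided permutation p was 0.0286, the smallest that 4 against 4 samples allow, and 0.0857 when adjusted over 6 shares. Whether these shares have a part in the results below was not tested.

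The start sites of the host genes are shown first, because a pyrimidine tract at the start is what many of these genes share with ribosomal protein genes. RefSeq promoters on GRCm38.p6 were at hand for 7 of the 10 genes, with 2 starts for Gas5, while Neat1, Snhg6 and Epb41l4aos were not matched. Each window of 70 bases runs from 30 bases before the annotated start to 40 bases from it on. Capitals mark a run that opens with C, goes on with at least 4 bases that are C or T, and begins within 5 bases of the start.
Gas5 (start upstream), chr1:161034571-161034640, plus strand: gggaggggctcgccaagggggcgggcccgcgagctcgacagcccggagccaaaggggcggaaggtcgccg
Gas5 (start downstream), chr1:161035136-161035205, plus strand: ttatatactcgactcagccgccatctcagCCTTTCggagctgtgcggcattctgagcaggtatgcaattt
Snhg1, chr19:8723457-8723526, plus strand: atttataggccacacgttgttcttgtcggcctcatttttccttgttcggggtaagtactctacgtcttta
Snhg3, chr4:132353647-132353716, minus strand: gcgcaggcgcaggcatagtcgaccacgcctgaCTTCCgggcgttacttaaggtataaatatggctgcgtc
Snhg5, chr9:88522858-88522927, minus strand: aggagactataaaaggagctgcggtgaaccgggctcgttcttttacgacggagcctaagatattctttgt
Snhg8, chr3:123508297-123508366, minus strand: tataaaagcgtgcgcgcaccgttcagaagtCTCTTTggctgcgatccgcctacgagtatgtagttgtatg
Snhg12, chr4:132308648-132308717, plus strand: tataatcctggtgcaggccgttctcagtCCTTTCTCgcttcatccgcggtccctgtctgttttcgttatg
Such a run was present in 4 of the 8 promoters and in 18.3% of the 32851 promoters of the table. The window of Malat1, which is not printed here, had none. Among 68 promoters of cytoplasmic ribosomal protein genes it was present in 44.1%. The downstream start of Gas5, Snhg3, Snhg8 and Snhg12 carried it. No run was found in these windows at the annotated starts of Snhg1, Snhg5 or the upstream start of Gas5. Host genes with the run were found both among those that fell under IOX5 with the replicate block (Snhg3 and Snhg12) and among those that were not called (Gas5 and Snhg8).

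The letters ACGTG, the core of the sequence that HIF recognizes, were searched on both strands of the same promoters and occurred in 3 of 8, those of Malat1, Snhg1 and Snhg5, against 19.6% of all promoters. The E-box CACGTG, which contains this core, was found in 0 of 8 and in 7.15% of all promoters. The 100 bases before each start are printed with the core in capitals, as ACGTG or, where it lies on the other strand, as CACGT.
Malat1, chr19:5802673-5802772, minus strand: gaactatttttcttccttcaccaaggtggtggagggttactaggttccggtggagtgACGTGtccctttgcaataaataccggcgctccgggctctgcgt
Snhg1, chr19:8723387-8723486, plus strand: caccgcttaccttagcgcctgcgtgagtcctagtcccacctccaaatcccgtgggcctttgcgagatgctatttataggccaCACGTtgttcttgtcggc
Snhg5, chr9:88522898-88522997, minus strand: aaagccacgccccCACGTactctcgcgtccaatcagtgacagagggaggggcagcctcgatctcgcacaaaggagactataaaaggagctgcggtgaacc
All 3 genes had a lower mean level in IOX5 than in DMSO, as given below. A match is a description of the letters and does not show that a factor binds there.

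The 8 host genes hold 30 annotated snoRNA genes on their own strand. Gas5 holds 10, Snhg1 8, Snhg12 5, Snhg3 and Snhg5 a pair each, and Snhg6, Snhg8 and Epb41l4aos 1 each. Snord80 in Gas5 and Snora16a in Snhg12 are each annotated more than once at nearly the same place. The counts are therefore of annotated genes and not of distinct snoRNAs. Of the 30, 26 lie wholly under an exon of some transcript of the host, and these 26 had no read in any sample. A read that falls on 2 genes is not credited to either by htseq-count at its default, although the mode is not stated for these files, so these zeros say nothing of how much snoRNA was present. The other 4 lie at least in part outside the exons, and all 4 had reads. They are Snora73a and Snora73b in Snhg3, Snord87 in Snhg6 and Gm23639 in Epb41l4aos.

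**Figure D1:**
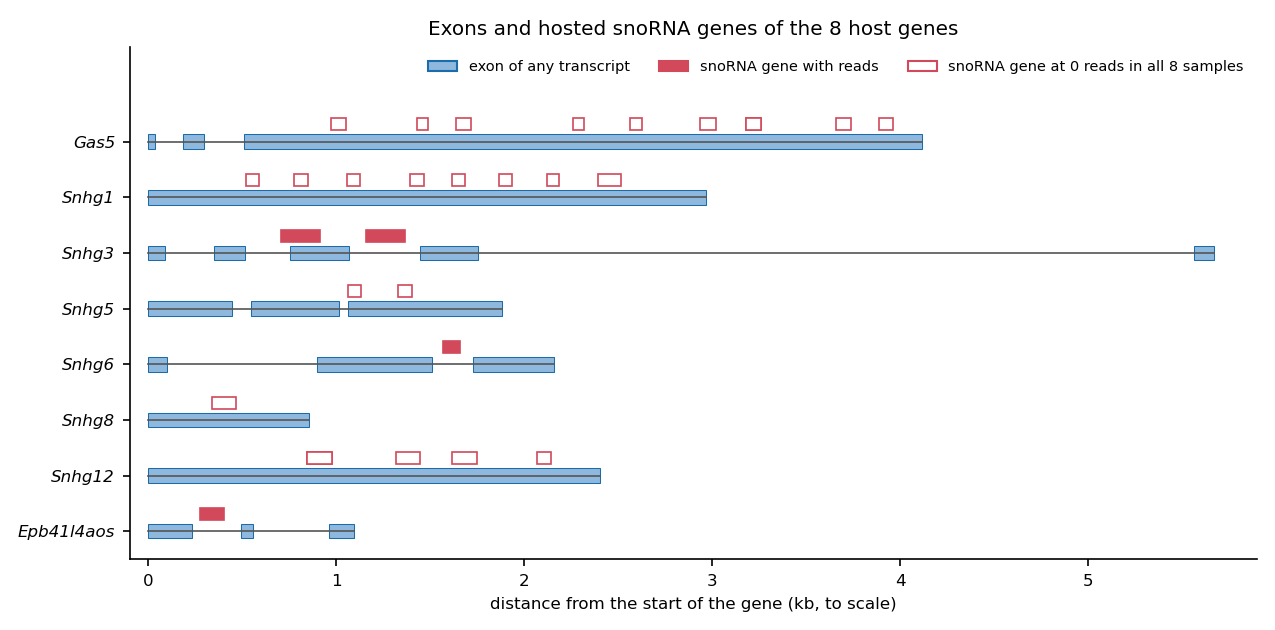
Maps of the 8 host genes drawn to scale, with the distance from the start of the gene in kb on the x axis, blue boxes for exons of any transcript and boxes above them for hosted snoRNA genes, filled where any sample had reads. The 4 filled boxes are the snoRNA genes that lie at least partly in an intron of every transcript, and the 26 open ones lie under an exon and had 0 reads.

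Sequences of the countable snoRNAs are shown because they are the only ones of the 30 for which the files hold a measurement, with coordinates on GRCm38 and sequence from GENCODE M21. In Snord87, a box C/D snoRNA that guides methylation of ribosomal RNA, capitals mark the C box and the matches to CTGA, the D box. In Snora73a and Snora73b, box H/ACA snoRNAs needed for processing of the small-subunit ribosomal RNA, capitals mark the ACA box near the 3′ end.
Snord87, chr1:9942463-9942549, minus strand: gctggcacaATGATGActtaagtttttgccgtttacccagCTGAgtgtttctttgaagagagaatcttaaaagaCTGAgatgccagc
Snora73b, chr4:132352322-132352526, minus strand: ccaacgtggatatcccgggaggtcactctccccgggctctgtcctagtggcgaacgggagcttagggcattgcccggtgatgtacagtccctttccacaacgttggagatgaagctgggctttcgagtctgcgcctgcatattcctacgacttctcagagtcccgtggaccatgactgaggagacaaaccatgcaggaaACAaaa
Snora73a, chr4:132352775-132352979, minus strand: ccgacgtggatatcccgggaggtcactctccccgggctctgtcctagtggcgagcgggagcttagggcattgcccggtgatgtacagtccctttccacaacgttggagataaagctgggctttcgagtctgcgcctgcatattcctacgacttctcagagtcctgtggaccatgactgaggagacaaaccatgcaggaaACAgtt
Snora73a and Snora73b differ at 7 of 205 positions, an identity of 96.6%, so a read can map equally well to both and be left out, and their split is uncertain. Snora73b had 122, 131, 115 and 152 reads in DMSO replicates 1 to 4 and 97, 104, 103 and 139 in IOX5. Its log2 fold change was -0.10 (SE 0.174, edgeR adjusted p = 0.779). Snord87 had 28, 29, 29 and 23 reads in DMSO and 24, 12, 21 and 28 in IOX5, with a log2 fold change of -0.24 (SE 0.269, edgeR adjusted p = 0.658). Neither was called with the replicate block, and the groups overlapped for both. Snora73a had 2 to 12 reads and Gm23639 3 to 15 reads per sample, too few to be tested. The libraries were made from poly(A) RNA, so reads of mature snoRNA and reads of unspliced host RNA cannot be told apart on these rows. Both Snora73 genes also lie within Rcc1, a protein-coding gene on the same strand described below. Their reads may therefore come from unspliced RNA of Snhg3 or of Rcc1.

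Malat1 was the most abundant of the 10 genes. Its annotation is 1 exon of 6983 bases on the minus strand of chromosome 19, chr19:5795690-5802672 in GRCm38. Per kilobase of annotated exon, its mean in DMSO was 92.2 CPM per kb, with samples from 77.5 to 106.9. Gas5 came next at 71.8 CPM per kb (65.4 to 79.1), and the ranges of these 2 genes overlapped. Snhg3 (46.8) and Snhg5 (45.0) followed with overlapping ranges, and then Snhg8 (37.5), Snhg6 (36.0) and Snhg1 (35.9), whose ranges also overlapped. Epb41l4aos stood at 27.9, Neat1 at 17.5 and Snhg12 at 11.2 CPM per kb, and the ranges of these 3 did not overlap. The length used is the union of all annotated exons. For Gas5, Snhg1, Snhg5, Snhg8 and Snhg12 it takes in retained introns, so the level of their usual spliced form is understated. For Snhg3 it takes in 159 of the 205 bases of Snora73a. For Neat1, which is 1 exon block, it takes in the whole of the long form, so the level of a shorter form is understated. The libraries were made from poly(A) RNA, and the part of that selection in this order was not tested.

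**Figure D2:**
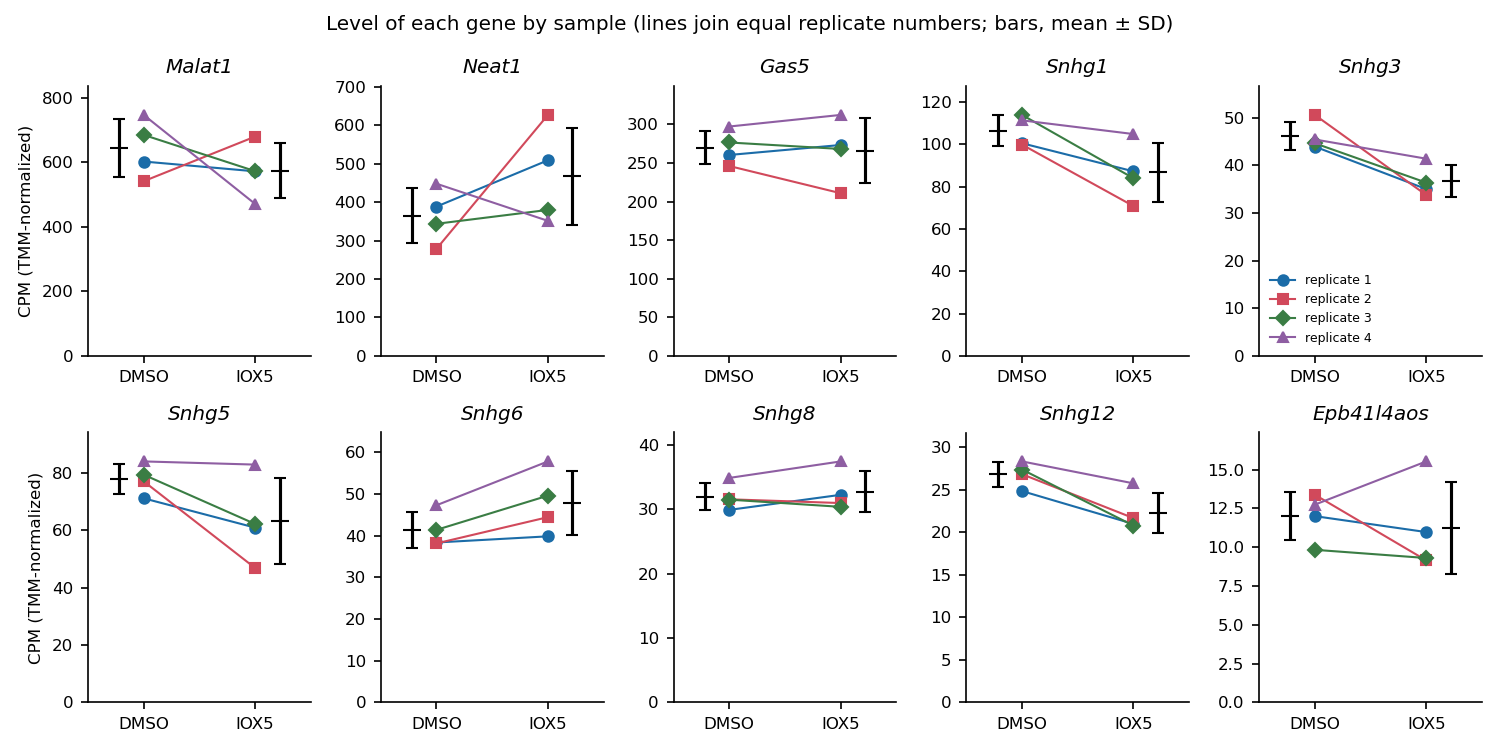
TMM-normalized level in CPM of each of the 10 genes, with 1 panel per gene, the 2 treatments on the x axis, symbols for replicates 1 to 4, lines joining equal replicate numbers and black bars for the mean ± SD of 4 samples. Snhg3 is the panel in which all 4 IOX5 samples (33.7 to 41.4 CPM) lie below all 4 DMSO samples (43.9 to 50.6 CPM), and in the panels of Malat1 and Neat1 replicate 2 rises steeply while replicate 4 falls.

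Without the block, edgeR called 0 of the 10 genes, against 2.02% of all genes tested, or 1.25% counting lower calls alone. An unadjusted p under 0.05 was reached by 3 of them and by 2506 of the 12405 genes tested. DESeq2 called 1, Snhg3, as lower. It called 4.5% of all genes tested lower, and 1016 of 12405 in either direction. With the replicate block, 4 of the 10 were called, all lower in IOX5, against 9.43% of all genes tested called lower in that fit. These were Snhg1, Snhg3, Snhg5 and Snhg12, all of them host genes. None was called higher, where 11.2% of all genes were. When both samples of 1 replicate number were left out of the blocked fit, 2 genes were called without number 1 (Snhg1 and Snhg3), 3 without number 2 (Malat1, Snhg1 and Snhg3), 0 without number 3 and 5 without number 4 (the 4 host genes, lower, and Neat1, higher). In these fits 5.28%, 8.2%, 3.23% and 8.48% of all genes were called lower for numbers 1 to 4. Without number 4, 1355 of 12474 genes were called higher.

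**Figure D3:**
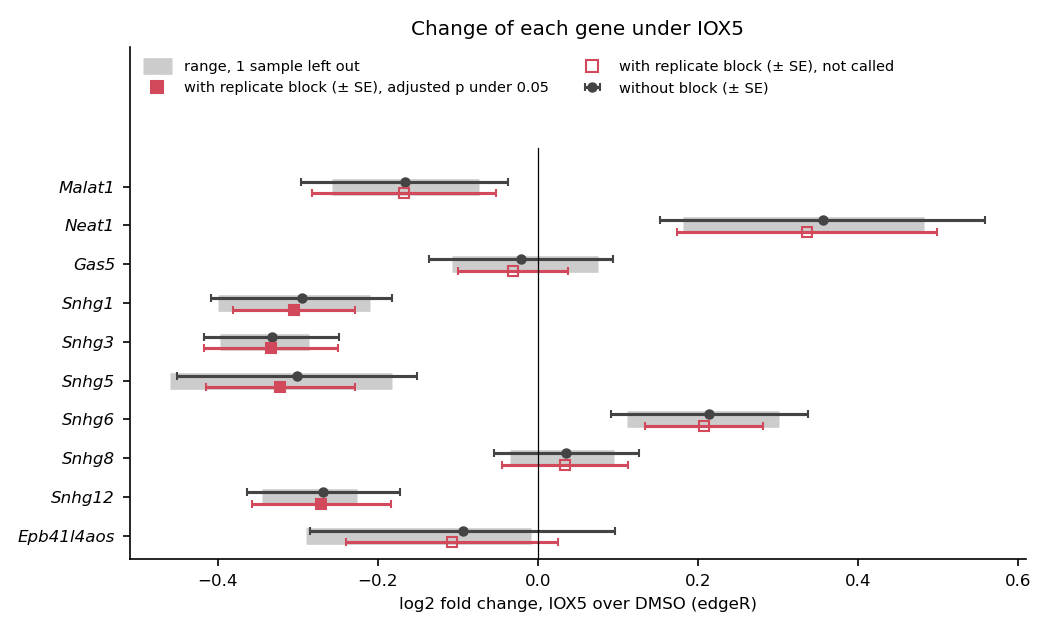
Log2 fold change of IOX5 over DMSO for each of the 10 genes on the x axis, with circles for the fit without a block and squares for the fit with the replicate block (error bars, SE), squares filled where the adjusted p was under 0.05, and grey bars for the range when 1 of the 8 samples was left out. The 4 filled squares, Snhg1, Snhg3, Snhg5 and Snhg12, lie between -0.33 and -0.27, and the grey bars of Gas5 and Snhg8 cross 0.

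Snhg3 hosts the Snora73 pair (chr4:132348014-132353686, minus strand, GRCm38). Its level was 43.9, 50.6, 44.6 and 45.4 CPM in DMSO replicates 1 to 4 and 35, 33.7, 36.3 and 41.4 CPM in IOX5 replicates 1 to 4. The 4 IOX5 samples lay below the 4 DMSO samples, which was so for 8.3% of all genes tested. The mean went from 46.1 ± 3.02 to 36.6 ± 3.34 CPM (SD, n = 4 per group), a log2 fold change of -0.33 (SE 0.084). Its edgeR adjusted p was 0.0746 without the block and 0.0134 with it. It was the gene of the 10 with the most calls over the alternative fits, 7 of 21, among them DESeq2 (adjusted p = 0.0237) and edgeR without IOX5 replicate 4 (adjusted p = 0.0387).

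Snhg3 starts 81 bases from the start of Rcc1, on the same strand, and the 2 genes share 135 bases of exon. Rcc1 (chr4:132331919-132353605) also spans both Snora73 genes, so Snhg3 and Rcc1 overlap as hosts and are not separate loci. Rcc1 encodes the nucleotide exchange factor of the GTPase Ran. The mean of Rcc1 went from 180.4 ± 13.7 to 132.2 ± 21.3 CPM (SD, n = 4 per group), again with every IOX5 sample below every DMSO sample. Its log2 fold change was -0.45 (SE 0.113), with an edgeR adjusted p of 0.0745 without the block and 0.0033 with it. Reads on the shared exon bases can be credited to neither gene under the default counting, so their values rest on the other exons. Gm17300, antisense to Snhg3, had 0 to 3 reads per sample.

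Snhg1 hosts 8 box C/D snoRNA genes in a locus of 2969 bases (chr19:8723475-8726443, plus strand). Its level was 100.6, 99.9, 114 and 111.4 CPM in DMSO replicates 1 to 4 and 87.3, 70.9, 84.0 and 104.9 CPM in IOX5. IOX5 replicate 4 reached into the range of the DMSO samples and the other 3 lay below it. The level was lower in IOX5 in 4 of 4 pairs, with ratios of 0.868, 0.709, 0.737 and 0.942 for numbers 1 to 4. Its fold change on the log2 scale was -0.30 without the block (SE 0.113, edgeR adjusted p = 0.192) and -0.30 with it (SE 0.076, adjusted p = 0.0133). Slc3a2, the heavy chain of several amino acid transporters, starts 106 bases away on the opposite strand. Slc3a2 had a mean of 304 ± 18.4 CPM in DMSO and 277 ± 31.9 CPM in IOX5 (SD, n = 4 per group) and was called in neither fit (log2 fold change -0.14, SE 0.090, edgeR adjusted p = 0.436 and with the block 0.148).

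Snhg5 hosts the Snord50 pair (chr9:88521050-88522929, minus strand). Its level was 71.1, 77.0, 79.3 and 83.9 CPM in DMSO and 60.9, 46.8, 62.1 and 82.8 CPM in IOX5. The 3 lower IOX5 samples lay under all DMSO samples and replicate 4 stood with the highest of them. The ratios within numbers 1 to 4 were 0.856, 0.608, 0.784 and 0.987. On the log2 scale it changed by -0.30 (SE 0.15, edgeR adjusted p = 0.303) without the block and -0.32 (SE 0.093, adjusted p = 0.0269) with it.

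Snhg12 hosts Snora16a, Snora44, Snora61 and Snord99 (chr4:132308623-132311024, plus strand), on the same chromosome as Snhg3. Its level was 24.8, 26.8, 27.4 and 28.3 CPM in DMSO and 21, 21.7, 20.8 and 25.8 CPM in IOX5. Only IOX5 replicate 4 exceeded the lowest DMSO sample. The log2 fold change was -0.27 (SE 0.096, edgeR adjusted p = 0.168) without the block and -0.27 (SE 0.087, adjusted p = 0.0413) with it, and DESeq2 with the block did not call it.

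The other 4 host genes were called in neither fit. Gas5, the host with the most snoRNA genes and a transcript also known to bind the glucocorticoid receptor (chr1:161034422-161038539, plus strand), had 260.4, 246.1, 276.6 and 297.3 CPM in DMSO and 273.3, 210.8, 268.2 and 312.3 CPM in IOX5. IOX5 samples were both the lowest and the highest of the 8. The log2 fold change of Gas5 was -0.02 (SE 0.115, edgeR adjusted p = 0.941), and 2 SE on either side of it reach from -0.25 to 0.21. Zbtb37, a zinc finger gene on the opposite strand that starts 427 bases from the start of Gas5 with no shared exon bases, went from 26.9 ± 2.67 to 22.1 ± 2.08 CPM (SD, n = 4 per group), with an edgeR adjusted p of 0.181 and with the block 0.0434.

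Snhg6, host of Snord87 (chr1:9941959-9944118, minus strand), was the host gene with the largest mean increase. Its level was 38.3, 38.1, 41.4 and 47.3 CPM in DMSO and 39.8, 44.4, 49.6 and 57.8 CPM in IOX5. It was higher in IOX5 in 4 of 4 pairs, with ratios from 1.04 to 1.22, while the groups overlapped. This gave a log2 fold change of 0.21 (SE 0.123, edgeR adjusted p = 0.369), and with the block 0.21 (SE 0.074, adjusted p = 0.0614). Mcmdc2 on the opposite strand shares 127 exon bases with it and had 4 to 11 reads per sample.

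Snhg8, host of Snora24 (chr3:123507552-123508404, minus strand), ranged from 29.9 to 34.9 CPM in DMSO and from 30.4 to 37.5 CPM in IOX5, with a log2 fold change of 0.04 (SE 0.091, edgeR adjusted p = 0.865). Epb41l4aos, which lies on chromosome 18 and was the least abundant at 103 to 179 reads per sample, ranged from 9.8 to 13.4 CPM in DMSO and from 9.1 to 15.5 CPM in IOX5. Its log2 fold change was -0.09 (SE 0.191, edgeR adjusted p = 0.822). For both genes the IOX5 range took in most of the DMSO range.

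The host genes thus moved unequally, and ratios between them within a sample, which do not depend on the scaling of libraries, show by how much. Gas5 had 2.43 to 2.67 reads per read of Snhg1 in DMSO and 2.98 to 3.19 in IOX5, without overlap. Snhg3 had 0.961 to 1.33 reads per read of Snhg6 in DMSO and 0.716 to 0.879 in IOX5. Snhg8 had 1.15 to 1.23 reads per read of Snhg12 in DMSO and 1.43 to 1.54 in IOX5. Of the 45 ratios among the 10 genes, 11 did not overlap between the groups, against 11.6% of all pairs of tested genes with a read in every sample. Of these 11, 10 set 1 of Snhg1, Snhg3, Snhg5 and Snhg12 against Gas5, Snhg6 or Snhg8, and the other was that of Malat1 and Neat1. These ratios were examined after the levels had been seen.

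Neat1 and Malat1 lie close together on chromosome 19, on the same strand. Neat1 (chr19:5824708-5845478) had 388.2, 278.4, 343.5 and 447.7 CPM in DMSO replicates 1 to 4 and 508.7, 626.6, 379.6 and 351.1 CPM in IOX5. The 2 groups overlapped widely, and the ratios of IOX5 over DMSO within numbers 1 to 4 were 1.31, 2.25, 1.11 and 0.784. Number 2 had the largest increase and number 4 was the one with a decrease. The log2 fold change of Neat1 was 0.36 (SE 0.203, edgeR adjusted p = 0.368), the largest of the 10 in size, and with the block 0.34 (SE 0.163, adjusted p = 0.157). Without number 4, the blocked fit gave 0.57 (SE 0.147, adjusted p = 0.0213). Without number 2, it gave 0.06 with an adjusted p of 0.675. Frmd8os, which starts 145 bases away on the opposite strand, had 0 to 6 reads per sample.

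Malat1 had 602.2, 541.2, 684.7 and 746.6 CPM in DMSO and 571.8, 679.4, 572.3 and 470.7 CPM in IOX5. Its ratios within numbers 1 to 4 were 0.950, 1.26, 0.836 and 0.631, so that number 2 again had the highest and number 4 the lowest. The log2 fold change was -0.17 (SE 0.129, edgeR adjusted p = 0.513), and with the block -0.17 (SE 0.115, adjusted p = 0.319). Without number 2, the blocked fit called Malat1 lower, at -0.33 (SE 0.083, adjusted p = 0.005), and without number 4 the value was 0.00 (adjusted p = 0.995). Both calls therefore rested on which pair was left out.

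Although neither RNA was called on its own with all samples, their ratio separated the groups. Neat1 had 0.645, 0.514, 0.502 and 0.600 reads per read of Malat1 in DMSO replicates 1 to 4 and 0.890, 0.922, 0.663 and 0.746 in IOX5. All 4 IOX5 samples lay above all 4 DMSO samples, with means of 0.805 ± 0.122 and 0.565 ± 0.069 (SD, n = 4 per group). The same held for the ratio to Malat1 of 6.18% of the other genes tested. This ratio was chosen after its values had been seen and carries no test here. The order of the samples by Malat1 resembled their order by the share of reads on no annotated gene. DMSO replicate 4 was highest on both (7.69% of reads), followed by DMSO replicate 3 (7.25%) and IOX5 replicate 2 (7.01%), and DMSO replicate 2 (6.40%) and IOX5 replicate 4 (5.89%) were lowest on both. The part of these reads in the level of Malat1 was not tested.

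**Figure D4:**
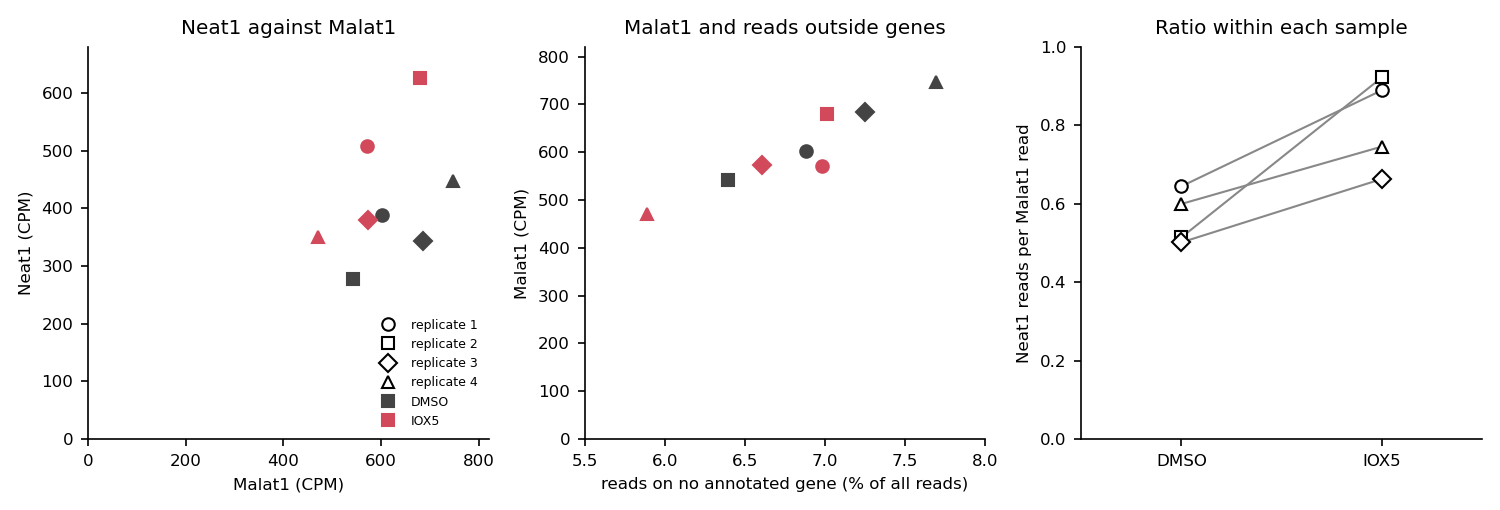
Left, Neat1 against Malat1 in CPM, 1 point per sample, with grey for DMSO, red for IOX5 and a symbol per replicate number. Middle, Malat1 in CPM against the percentage of reads on no annotated gene, where the samples from 5.89% to 7.69% line up with rising Malat1, and right, Neat1 reads per Malat1 read, where all IOX5 samples (0.663 to 0.922) lie above all DMSO samples (0.502 to 0.645) and lines join equal replicate numbers.

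As a measure of the response to IOX5 in each pair, 3 genes known to be induced by HIF are set beside Neat1. Pdk1, a kinase that restrains pyruvate dehydrogenase, rose in 4 of 4 pairs with ratios of 1.5, 1.86, 1.54 and 1.51 (log2 fold change 0.67, SE 0.079, edgeR adjusted p = 0.0157). Bnip3, a mitophagy receptor, rose with ratios of 1.67, 3.31, 1.72 and 1.86 (log2 fold change 0.98, SE 0.199, edgeR adjusted p = 0.0469). Egln3, which encodes PHD3, had ratios of 1.51, 2.21, 1.93 and 1.89 and an edgeR adjusted p of 0.136 without the block, and was called with it (adjusted p = 3.1e-05). For these genes and for Neat1, number 2 had the largest ratio. DMSO replicate 2 had the lowest level of all samples for each of the 4, 62.1 CPM for Bnip3 and 76.6 CPM for Egln3. In number 4 the ratio of Neat1 was below 1 while those of the 3 HIF-induced genes were not.

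Genes of related function were counted in lists written from general knowledge, with the median log2 fold change of all genes tested, 0.02, as the reference. Of all 12405 genes tested, 5855 had a negative fold change without the block, and 9.43% were lower and 11.2% higher with it. The lists were not matched to all genes by level, which bears on how easily a gene is called. In the blocked fits without numbers 1, 2, 3 and 4, 5.28%, 8.2%, 3.23% and 8.48% of all genes were lower. Among 26 tested protein-coding hosts of snoRNAs outside the ribosome, 24 had a negative fold change and the median was -0.20. Rcc1, which overlaps Snhg3 and spans the same Snora73 genes, is among them. With the block 12 of the 26 (46.2%) were lower and 0 higher. The count of lower calls was 3 without number 3 (11.5%), 5 without number 1 (19.2%), 9 without number 2 (34.6%) and 14 without number 4 (53.8%). Without the block it was 0, where 1.25% of all genes tested were lower. It was 8 with DESeq2 (30.8%, against 4.5% of all genes) and 10 without IOX5 replicate 4 (38.5%, against 2.64%). Besides Rcc1, the called members with the smallest p in the fit without the block were Ddx39b, an RNA helicase of splicing and export (374.9 to 325.7 CPM, log2 fold change with the block -0.20, SE 0.062, edgeR adjusted p = 0.0333), and Taf1d, a factor of RNA polymerase I (143.9 to 113.3 CPM, log2 fold change with the block -0.35, SE 0.066, edgeR adjusted p = 0.0028).

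Among 9 tested snoRNA host lncRNAs that are not in the group of 8, the median was -0.18. Dancr, Snhg17 and Mir17hg, the last of which hosts a microRNA cluster rather than snoRNAs, were lower with the block, with log2 fold changes in that fit of -0.58, -0.34 and -0.42 and edgeR adjusted p of 0.0196, 0.0117 and 0.0043. Snhg11 was higher (0.56, adjusted p = 0.0456), at 5.17 CPM in DMSO and 7.69 CPM in IOX5. The 3 lower calls of 9 (33.3%) stand against 9.43% of all genes tested and became 1 without number 3 and 2 with DESeq2 and the block, while the call of Snhg11 was lost without number 1, 2 or 3 and with DESeq2 and the block. The 8 host genes described here had a median of -0.18, with 6 of 8 negative. In the blocked fit it was -0.08 with 4 negative without number 2, and -0.28 with 6 negative without number 4.

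To set aside the choice of names, every tested gene that holds an annotated snoRNA or scaRNA on its own strand was also counted, a rule added after the lists had been seen. Of the 27 protein-coding hosts and 16 other host lncRNAs listed above, 26 and 12 were found by symbol. Of those found, 25 protein-coding hosts and 10 other host lncRNAs hold one. Those tested are counted again here, so these groups are not separate from the lists. Of 192 protein-coding genes outside the ribosomal proteins, 133 had a negative fold change, the median was -0.13, and 45 (23.4%) were lower and 13 higher with the block. Without number 3 the blocked fit called 13 of the 192 lower, 6.77% against 3.23% of all genes in that fit. Of 20 genes that are not classed as protein-coding and are not among the 8, 14 were negative, the median was -0.20 and 8 were lower with the block, or 1 without number 3 and 5 without number 1 or number 2. The 30 ribosomal protein genes that hold a snoRNA had a median of 0.04, and 0 of them was called in either direction with the block. All 79 cytoplasmic ribosomal protein genes together had a median of 0.05, with Rps29 (0.40, edgeR adjusted p = 0.0391) and Rps28 (with the block 0.30, adjusted p = 0.0070) higher. With the block without number 2, 9 of the 79 were higher. The median changed sign without IOX5 replicate 4 (-0.02, with 50 of 79 negative) and with the block without number 4 (-0.02, with 46 negative).

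**Figure D5:**
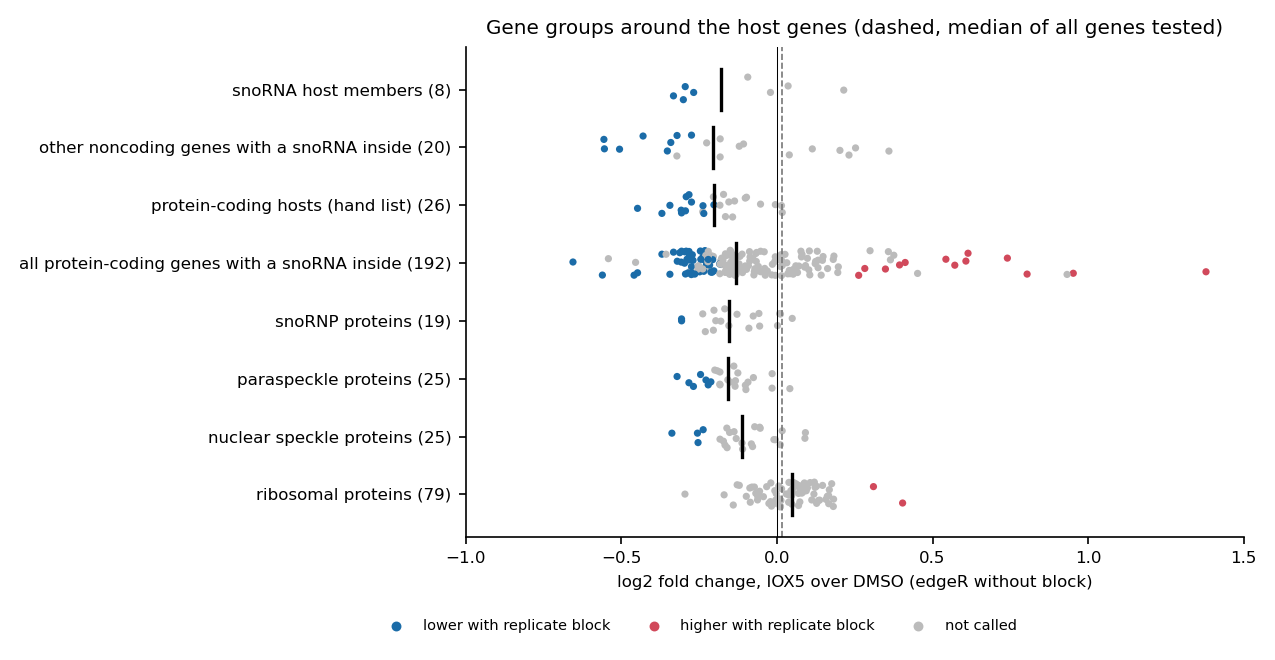
Log2 fold change of IOX5 over DMSO from the fit without a block on the x axis, 1 point per tested gene with the number of genes in parentheses, black bars for group medians, and colours for the call with the replicate block. The medians of the 5 upper groups, which are the host genes and the snoRNP proteins, lie between -0.20 and -0.13, and that of the ribosomal proteins is 0.05.

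Proteins that act with these RNAs were counted in the same way, and Nop56, Nop58 and Dkc1 are also on the list of protein-coding hosts. Of 19 tested proteins of box C/D and H/ACA snoRNPs and their assembly, 15 had a negative fold change, with a median of -0.15, and 2 (10.5%, against 9.43% of all genes tested) were lower with the block, Nolc1 (log2 fold change in that fit -0.31, edgeR adjusted p = 0.0110) and the box C/D core protein Nop58 (-0.32, adjusted p = 0.0221). That count was 0 without number 3, 1 without number 2 and 6 without number 4. Of 25 paraspeckle proteins, 24 were negative with a median of -0.16. Sfpq, which binds Neat1, was the 1 member called without the block, from 755 to 620 CPM (log2 fold change -0.28, SE 0.057, edgeR adjusted p = 0.0469), and 7 were lower with it, Matr3 and Hnrnpul1 among them. The count with the block was 0 without number 3 and 2 without number 1. Without the block the count was 0 with RLE or upper-quartile factors, with library totals only and without a filter. It was also 0 when a sample was left out, except for 2 without IOX5 replicate 4. With limma voom and with at least 10 reads in every sample it was 1, and with DESeq2 7 (28.0%, against 4.5% of all genes). Of 25 nuclear speckle proteins, 21 were negative with a median of -0.11, and 4 were lower with the block, among them Mettl16 (log2 fold change in that fit -0.34), Srsf1 (-0.24) and Cdk12 (-0.26), a count that was 1 without number 1 or number 3.

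Of 18 factors of nonsense-mediated decay, the pathway that limits spliced host RNAs, 14 had a negative fold change and the median was -0.09. With the block, Eif4a3 was lower (log2 fold change -0.26) and Upf3a was higher (0.23), while no factor was called in that fit without number 1 or number 3. Of 13 other long noncoding RNAs tested, Kcnq1ot1, the imprinted antisense RNA of the Kcnq1 domain, had the largest change, from 51.0 to 29.7 CPM, with every IOX5 sample below every DMSO sample (log2 fold change -0.78, SE 0.166, edgeR adjusted p = 0.0517 and with the block 0.0008). Mir22hg was higher with the block (0.44, edgeR adjusted p = 0.0439), and DESeq2 with the block called no member of the list higher. The median of these 13 was -0.02, and over all 487 tested genes classed as noncoding it was 0.06. Of the 10 myeloid markers, 8 had a positive and 2 a negative fold change without the block. With the block 5 were higher, where 11.2% of all genes tested were, and without number 3 this count was 3, where 642 of 12479 genes were. Among the 5 were Itgam (log2 fold change with the block 0.55, edgeR adjusted p = 0.0024), Cebpa (0.51, adjusted p = 0.0004) and Elane (0.23, adjusted p = 0.0336). Of the 5 tested markers of other cells, 2 were higher with the block, Pecam1 (0.43, adjusted p = 0.0013) and the globin gene Hbb-bs (1.02, adjusted p = 0.0003), the latter from 6.05 to 12.1 CPM. Of 10 tested mitochondrially encoded genes, 6 had a positive and 4 a negative fold change without the block. With the block 3 were higher, mt-Cytb (0.27), mt-Co1 (0.22) and mt-Co2 (0.53), and 0 lower. The count of higher calls ran from 1 to 5 with a number left out, and without number 1 the blocked fit also called 1 lower. In bulk RNA, a change in the make-up of the cells and a change of RNA per cell cannot be told apart, for these markers and for the 10 RNAs alike.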

How the data were processed

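According to the methods and the labels, the authors built directional libraries from poly(A) RNA, sequenced them single-end, trimmed the reads with cutadapt 1.18, mapped them to GRCm38 with HISAT2 2.2.1 and obtained the deposited read counts per Ensembl gene with HTSeq 2.0.1, library by library and without normalization. The annotation release, strand setting and overlap mode of the counting are not given in the sources used here. The 5 summary lines of each file, 20.6% to 22.6% of reads, did not enter library sizes or tests.

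Names and coordinates came from GENCODE M21 by identifier (54809 of 54838 genes matched), and promoters from RefSeq. With R 4.3.3 and edgeR 4.0.16, filterByExpr kept 12405 genes, TMM factors ran from 0.988 to 1.03, and IOX5 was compared with DMSO by the quasi-likelihood test at a Benjamini-Hochberg adjusted p under 0.05. Same-numbered samples deviated together (r = 0.758, 0.744, 0.732 and 0.636 across genes for numbers 1 to 4), so a fit blocked on the replicate number was read beside it. The highest r with another number was 0.212 for numbers 1 and 2 and 0.685 for numbers 3 and 4. Number 4 thus had a lower r with its own number than with number 3, and the pairing is less clear for these 2 numbers. DESeq2 1.42.0, limma voom 3.58.1, other scalings and filters and each sample left out were alternatives, and the steps were tested on simulated data. The genes described, the lists and the rule for names (every member, its small RNAs and neighbours, Egln3, Bnip3, Pdk1, and per list up to 3 genes per direction with the smallest p among those called in either fit, or otherwise 2) were chosen with earlier results of these data known. Snhg3 is also among genes listed by the study from these samples, so its direction is not independent evidence. A gene that the rule for names picks from the list of decay factors is not reported here.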

Additional observations from a re-analysis of the deposited data

Results flagged for a closer look

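Dixon's ratio was examined for the 10 genes and 7 shares of reads in each group of 4 samples, 34 groups in all, of which chance flags about 1 in 20. It flagged 1 value, the share of reads that did not align in DMSO replicate 2, 3.28% against 2.98% to 3.03% in the other DMSO samples (Dixon's ratio 0.833). The levels of the 10 genes were not flagged in any group. DMSO replicate 2 had the lowest Malat1, Neat1 and Gas5 of the DMSO samples, and the part of the unaligned reads in these levels was not tested.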

How the results depend on the processing

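Without the block, 0 of the 10 genes was called with limma voom, with RLE or upper-quartile factors, with library totals only, without a filter, with at least 10 reads in every sample and when a sample was left out, except for 1 (Snhg3) without IOX5 replicate 4, a range of 0 to 1. The count was 1 with DESeq2, 1 at an adjusted p under 0.1, 4 with the replicate block and 3 with the block in DESeq2. The block with a replicate number left out was chosen after seeing the data and gave 2, 3, 0 and 5 for numbers 1 to 4. Over all genes, 251 calls became 818 at an adjusted p under 0.1, 1016 with DESeq2, 152 without a filter, 2564 with the replicate block and 1686 with the block in DESeq2. They ran from 0 to 463 when a sample was left out, and were 1644, 2135, 1045 and 2413 with the block without numbers 1 to 4. The count over all genes was 0 when replicate 3 of either group or replicate 4 of DMSO was left out, with 1846 to 2111 genes at an unadjusted p under 0.05, which limits what the fit without the block can show.

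Snhg1, Snhg3, Snhg5, Snhg12, Snhg6 and Neat1 kept their direction in 21 of 21 alternatives. Gas5 ran from -0.107 to 0.0758 with a sample left out, above 0 without DMSO replicate 4 (0.0429) or IOX5 replicate 2, and was 0.0325 with the block without number 2. Snhg8 ran from -0.0353, without IOX5 replicate 4, to 0.0946. With the block, Epb41l4aos changed sign without number 2 (0.0356) and Malat1 without number 4 (0.0011). The cause was not tested. At 103 to 179 reads per sample, counting error alone is sizeable for Epb41l4aos.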
